A study of Mus musculus with 1 sample.

Results

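The acinar cells of the pancreas store digestive enzymes in zymogen granules and release them into the ducts when cholecystokinin or acetylcholine signals a meal. The granule carries more than enzymes: its membrane and its content hold lectins, glycoproteins and small stable secreted proteins that travel with the enzymes into the juice. Described here are 8 genes of that kind out of the 32285 genes counted: *Gp2*, *Cuzd1*, *Zg16*, *Sycn*, *Dmbt1*, *Klk1*, *Tff2* and *Rnase1*. They were chosen by symbol, and all 8 were found.

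The data were 1 single-cell RNA sequencing library of the genotype *Scap* f/f, the control genotype: both copies of *Scap* carry loxP sites, but without a Cre transgene they are not cut. Pancreata of 5 to 6 mice aged 2 weeks were pooled, digested with Collagenase P, strained and cleared of dead cells before the droplet library was made. Animals cannot be told apart in the pool, so there was no replicate and no test between groups, and the library of the *Scap* Δpanc genotype is not analysed here. Each value is therefore given with an exact interval at 95% confidence that covers counting error only: Poisson for a level, Clopper-Pearson for a share of cells and a conditional binomial interval for a ratio.

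Of 11789 barcodes, 10947 held more than 800 and fewer than 100000 unique molecular identifiers (UMIs, each 1 captured RNA molecule) with under 15% of them mitochondrial. The acinar gate took the 1348 barcodes in which 8 enzyme genes (*Ctrb1*, *Pnliprp1*, *Clps*, *Reg1*, *Cela2a*, *Cpa1*, *Cela3b* and *Cpb1*) made up at least 10% of the UMIs, and none of the 8 genes described here is among those enzymes. The gate cut through a continuum, with 59 barcodes between 8% and 10% and 63 between 10% and 12%. All 11 acinar markers, of which 8 set the gate, were at least 24.8-fold higher in it than in the 8074 barcodes outside it that held a UMI of the collagen gene *Col1a1*. A further 47 barcodes outside the gate were duct-like, with a UMI of at least 3 of 8 duct markers and of *Epcam* or *Cdh1*. Of these 10 duct and epithelial markers, all of which set the duct-like gate, 8 were at least 4-fold higher in it than in *Col1a1* cells (*Krt19* reached 226 against 72.7 counts per 1000000 UMIs, CPM). The median depth was 4410 UMIs in the acinar gate, 9252 in duct-like cells and 2765 in *Col1a1* cells. A *Col1a1* UMI was also found in 85.1% of acinar-gate barcodes and in 84.6% of all kept barcodes, and an *Rnase1* UMI in 42.1% of *Col1a1* cells. The 8074 *Col1a1* cells were thus a mixed class and not 1 cell type. When immune, endothelial and other cells gated by markers were taken out, 5867 were left.

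Of the 8 genes, 6 lie on mouse chromosome 7 and the positions given here are those of GENCODE M21 on GRCm38, the assembly of the mm10 build used for the counts. *Gp2* (chr7:119442537-119459285, reverse strand, 11 exons) encodes the main glycoprotein of the granule membrane, anchored by a lipid. *Cuzd1* (chr7:131308554-131322292, reverse strand, 9 exons) encodes a granule membrane protein with CUB and zona pellucida domains, and *Dmbt1* (chr7:131032053-131121630, forward strand, 47 exons), a large scavenger-receptor glycoprotein of mucosal secretions, lies 186924 bases away from it. *Zg16* (chr7:127050156-127087328, reverse strand, 4 exons) encodes a lectin that binds the submembranous matrix of the granule. *Sycn* (chr7:28540885-28542209, forward strand, 2 exons) encodes syncollin, a granule protein needed for efficient exocytosis. *Klk1* (chr7:44225360-44229618, forward strand, 5 exons) encodes tissue kallikrein, a secreted serine protease that frees kinins. *Tff2* (chr17:31141049-31144282, reverse strand, 4 exons) encodes a trefoil peptide that protects mucosa, and *Rnase1* (chr14:51144998-51146785, reverse strand, 2 exons) encodes the secreted pancreatic ribonuclease.

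*Dmbt1* has by far the longest gene body, with 83335 intron bases beside a transcript of 6243 bases, whereas *Sycn* and *Rnase1* have 769 and 796 intron bases. UMIs were counted from the 3′ end of the RNA and were not divided by transcript length, so an order of levels between genes is an order of counted molecules.

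Promoter sequence was matched in RefSeq (GRCm38.p6) for 5 of the 8 genes, and the 250 bases before the start are shown for 4 genes that the results turn on. These are the most abundant member and the member with the widest spread between deeply sequenced cells. Shown with them is the pair with the largest drop per enzyme UMI from shallow to deeply sequenced cells. Each promoter is written 5′ to 3′ on the strand of the gene. The start is that of RefSeq, which for *Gp2* and *Rnase1* lies inside the gene span given above, so those stretches overlap the span. Capitals mark the motif CANNTG, the E-box read by basic helix-loop-helix factors such as the acinar regulator PTF1A.
Gp2 (chr7:119459273-119459522, reverse strand): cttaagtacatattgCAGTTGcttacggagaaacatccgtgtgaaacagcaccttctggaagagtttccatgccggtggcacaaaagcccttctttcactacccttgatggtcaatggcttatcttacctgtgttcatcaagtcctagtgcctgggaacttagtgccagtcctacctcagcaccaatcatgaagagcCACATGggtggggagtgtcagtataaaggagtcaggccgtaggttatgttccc
Klk1 (chr7:44225110-44225359, forward strand): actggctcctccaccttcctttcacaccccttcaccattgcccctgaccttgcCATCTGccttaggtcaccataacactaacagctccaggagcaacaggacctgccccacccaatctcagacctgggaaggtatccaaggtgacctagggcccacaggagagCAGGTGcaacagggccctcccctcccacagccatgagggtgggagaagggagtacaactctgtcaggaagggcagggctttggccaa
Sycn (chr7:28540635-28540884, forward strand): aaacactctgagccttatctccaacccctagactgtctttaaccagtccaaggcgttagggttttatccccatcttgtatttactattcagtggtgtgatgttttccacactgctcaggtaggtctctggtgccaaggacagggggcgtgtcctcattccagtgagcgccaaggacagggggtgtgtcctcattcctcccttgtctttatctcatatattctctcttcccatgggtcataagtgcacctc
Rnase1 (chr14:51146768-51147017, reverse strand): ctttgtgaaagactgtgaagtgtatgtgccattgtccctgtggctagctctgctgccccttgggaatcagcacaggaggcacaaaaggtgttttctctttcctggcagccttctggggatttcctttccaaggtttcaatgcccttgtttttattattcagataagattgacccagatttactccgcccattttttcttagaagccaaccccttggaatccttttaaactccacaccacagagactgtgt
On either strand CANNTG was found in 3 of the 5 promoters (*Gp2*, *Cuzd1* and *Klk1*), against 66.2% of 32851 promoters of the same length. TTTCCC, the box that accompanies the E-box in the binding site of the PTF1 complex, was in 0 of 5, against 21.9% of all promoters. TATAAA on the gene strand was found in *Gp2* alone, from base -32 to base -27 before the start, and in 7.59% of all promoters. AAGGTCA was found in *Klk1* alone and in 4.08% of all promoters, and CACCTG, which is 1 form of CANNTG, in *Klk1* alone and in 17.2%.

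Together the 8 genes supplied 2.52% of the UMIs of acinar-gate cells, beside 32.3% from the 8 enzymes. *Rnase1* was the most abundant, at 10157 CPM (10106 to 10209). *Zg16* and *Tff2* followed at 4557 (4523 to 4592) and 4194 (4161 to 4228) CPM. *Sycn* stood at 2648 and *Klk1* at 1696 CPM. The membrane proteins and the scavenger receptor formed the low end, with *Dmbt1* at 925, *Gp2* at 693 and *Cuzd1* at 372 CPM. No neighbours in this order had overlapping intervals, although the intervals leave out any difference between animals.

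**Figure D1:**
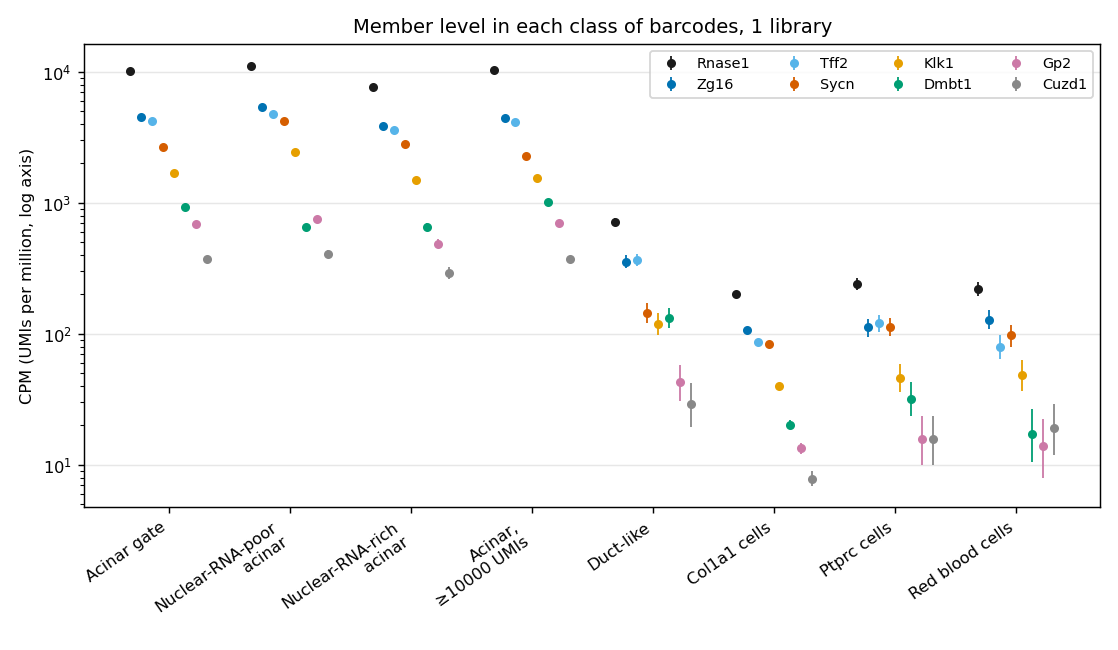
Level of each gene (CPM, log axis) in 4 acinar gates, duct-like cells and 3 classes of other cells; points are pooled levels of 1 library and bars exact Poisson 95% intervals. *Rnase1* is highest in each class, at 10157 in the acinar gate and 200 in *Col1a1* cells, and each gene is lower outside the acinar gates than within them.

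All 8 genes were at least 4-fold higher in the acinar gate than in *Col1a1* cells, a fold that 4.48% of 16570 genes with at least 20 UMIs reached in that direction. *Gp2* was 51.8-fold higher (46.9 to 57.3), *Rnase1* 50.8-fold (49.5 to 52.1) and *Tff2* 48.7-fold (46.8 to 50.6). *Cuzd1* was 47.3-fold and *Dmbt1* 45.8-fold higher, and *Klk1* and *Zg16* were 42.6-fold and 42.5-fold higher. *Sycn* had the smallest contrast, at 31.7-fold (30.4 to 32.9). The median log2 fold was 5.54 over the 8 genes and -0.98 over all genes tested, and the sum of the 8 gating enzymes differed by 48.2-fold (48.0 to 48.4). The members thus had folds near that of the enzymes, with *Sycn* the lowest. The enzyme fold follows from the gate, which was set on those enzymes, so it is not an independent yardstick.

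The share of cells with a UMI separated the genes further. A UMI of *Rnase1* was found in 99.9% of acinar-gate cells, of *Tff2* in 99.3%, of *Zg16* in 99.0%, of *Sycn* in 98.4% and of *Klk1* in 96.5%. *Dmbt1*, *Gp2* and *Cuzd1* were found in 79.2%, 77.4% and 70.9% of the same cells. When each cell was thinned to 800 UMIs, the share for *Rnase1* stayed at 98.9% (98.2 to 99.4), but that for *Klk1* was 72.6%, for *Dmbt1* 38.1%, for *Gp2* 36.4% and for *Cuzd1* 24.3% (22.1 to 26.7). Cells that should make none of these proteins gave the background. At the same thinned depth *Rnase1* was found in 18.3% of the 783 *Ptprc* cells, which are leukocytes outside the gate without *Col1a1*, and in 15.8% of the 519 red blood cells. *Gp2* was found in 1.79% and 1.16% of these classes after thinning, and in 2.94% and 3.08% before it. The unthinned median depth was 1460 UMIs in *Ptprc* cells and 1615 in red blood cells.

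The counts outside the acinar gate were then expressed per 1000 UMIs of the 8 enzymes, so that a class that merely carried acinar RNA would keep the ratio of acinar cells. Of all kept UMIs of the 8 genes, 94.6% were in the acinar gate. Per 1000 enzyme UMIs the 8 genes together gave 78.2 in the acinar gate, 83.3 in *Col1a1* cells, 85.2 in *Ptprc* cells and 81.0 in red blood cells. *Rnase1* gave 31.5 (31.3 to 31.6) in the acinar gate, 29.8 in *Col1a1* cells, 29.3 in *Ptprc* cells and 28.5 in red blood cells. *Gp2* gave 2.15, 2.00, 1.92 and 1.80 in the same 4 classes. Between the acinar gate and *Col1a1* cells, 7 of the 8 genes kept this ratio within 1.5-fold. The share of other genes within 1.5-fold was not computed, so this count does not set the members apart from other acinar genes.

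Just past that limit was *Sycn*, at 1.52-fold. It gave 8.20 UMIs per 1000 enzyme UMIs in the acinar gate (8.12 to 8.28), 12.5 in *Col1a1* cells, 13.9 in *Ptprc* cells (11.9 to 16.2) and 12.6 in red blood cells (10.4 to 15.2). With an acinar gate of 20% the *Sycn* ratio was 1.39 and 8 of 8 genes were within 1.5-fold. With fewer than 10000 UMIs per barcode *Sycn* was at 1.16 and *Dmbt1* was the 1 gene outside, at 1.54. The interval of the *Sycn* ratio was 1.46 to 1.58, and against acinar-gate cells of 10000 or more UMIs it was 1.74 (1.67 to 1.81). The intervals of the *Sycn* values overlapped among the 3 classes outside the gate and lay above that of the acinar gate. *Cuzd1* stood apart in the sparser classes, with 2.48 (1.55 to 3.75) in red blood cells against 1.15 in the acinar gate, but this rested on 22 UMIs, and the 243 UMIs in *Col1a1* cells gave 1.17 (1.03 to 1.33). The mix of the enzymes also differed: *Clps*, the lipase cofactor, made up 208 of 1000 enzyme UMIs in *Col1a1* cells and 150 in the acinar gate, and *Cela3b*, an elastase, 31.5 and 49.0.

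**Figure D2:**
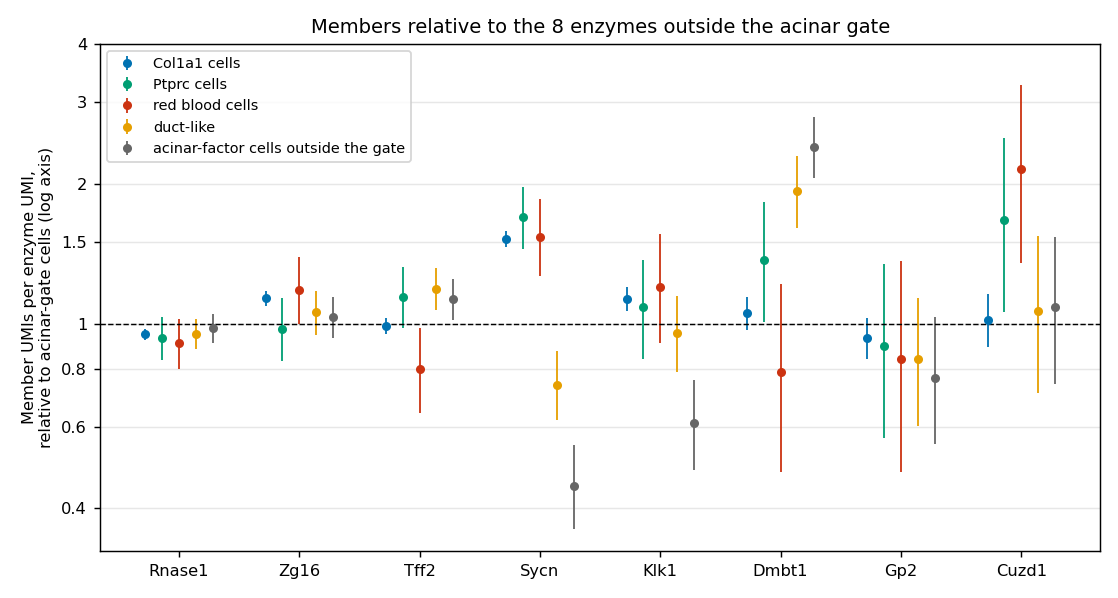
UMIs of each gene per enzyme UMI in 5 classes outside the acinar gate, relative to acinar-gate cells (log axis, dashed line at 1); bars are exact conditional 95% intervals. *Rnase1* and *Zg16* stay near 1, and *Sycn* is at 1.52 in *Col1a1* cells and 0.448 in acinar-factor cells. *Dmbt1* is at 2.40 in the acinar-factor cells. It is at 1.37 without the 5 of them that had 0 or 1 *Epcam* UMI and were also picked for *Dmbt1*. Deeper cells picked for *Dmbt1* remain in that value.

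Acinar-gate cells were split by depth and by *Malat1*, a long non-coding RNA that stays in the nucleus. Below 10000 UMIs, 637 cells held under 0.5% *Malat1* among their UMIs outside the 8 enzymes (nuclear-RNA-poor, median 3180 UMIs) and 327 held at least that share (nuclear-RNA-rich, median 3584 UMIs), and 384 cells had 10000 or more UMIs (median 22124). A *Col1a1* UMI was found in 79.7% of the nuclear-RNA-poor cells, 78.0% of the nuclear-RNA-rich cells and 100% of the cells of 10000 or more UMIs. No member differed by 2-fold between nuclear-RNA-poor and nuclear-RNA-rich cells, where 0.331% of 9376 genes were 2-fold higher and 36.1% were 2-fold lower in the poor cells. Of the 8 members, 7 lay between 1.33-fold (*Tff2*) and 1.64-fold (*Klk1*) higher in the nuclear-RNA-poor cells, beside 1.47-fold for the enzyme sum. *Dmbt1* did not follow them. It stood at 652 CPM (619 to 685) in nuclear-RNA-poor cells and 654 (612 to 699) in nuclear-RNA-rich cells, a ratio of 0.996 (0.916 to 1.08).

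Per 1000 enzyme UMIs *Dmbt1* therefore differed in steps across the gates, from 1.73 (1.64 to 1.82) in nuclear-RNA-poor cells to 2.55 (2.38 to 2.72) in nuclear-RNA-rich cells and 3.18 (3.13 to 3.24) in cells of 10000 or more UMIs. *Sycn* had another pattern, with 11.1 (10.9 to 11.4) and 10.9 (10.6 to 11.3) in the 2 shallow gates and 7.19 in the deep one. Between the poor and rich shallow cells the ratio of these values was 0.678 for *Dmbt1* (0.623 to 0.737) and 1.02 for *Sycn* (0.979 to 1.06). *Klk1* gave 6.46, 5.81 and 4.89 in the same order, and *Rnase1* gave 29.5, 29.7 and 32.1. The order of levels also changed: *Gp2* exceeded *Dmbt1* in nuclear-RNA-poor cells (757 against 652 CPM), while *Dmbt1* exceeded *Gp2* in nuclear-RNA-rich cells (654 against 489) and in deep cells (1017 against 705).

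Against nuclear-RNA-rich cells, the cells of 10000 or more UMIs were again within 2-fold for all 8 members, where 5.0% of 12642 genes were 2-fold higher and 14.8% were 2-fold lower. *Dmbt1* was 1.55-fold (1.45 to 1.67) and *Gp2* 1.44-fold (1.33 to 1.56) higher in the deep cells, and *Rnase1* was 1.34-fold higher. *Sycn* alone lay below, at 0.817-fold (0.789 to 0.846), and *Klk1* was level at 1.05-fold (1.00 to 1.10). With a limit of fewer than 10000 UMIs, as in the methods of the study, these 384 cells would be left out.

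In finer bins of depth the 2 directions were gradual. *Sycn* gave 11.5 UMIs per 1000 enzyme UMIs in the 177 cells of up to 2000 UMIs, 11.3 in the next 558 cells of up to 5000, 10.8 in the 229 of up to 10000, 9.05 in the 172 of up to 20000, 6.74 in the 130 of up to 40000 and 6.62 in the 82 cells above that. *Klk1* gave 6.37 in the shallowest and 4.83 in the deepest bin. *Dmbt1* ran the other way, from 1.96 in the shallowest bin and 1.71 in the next to 3.32 in the deepest, and *Gp2* went from 1.59 to 2.31. *Tff2* was the flattest, between 13.4 and 12.9. What else differs between shallow and deep barcodes was not tested.

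**Figure D3:**
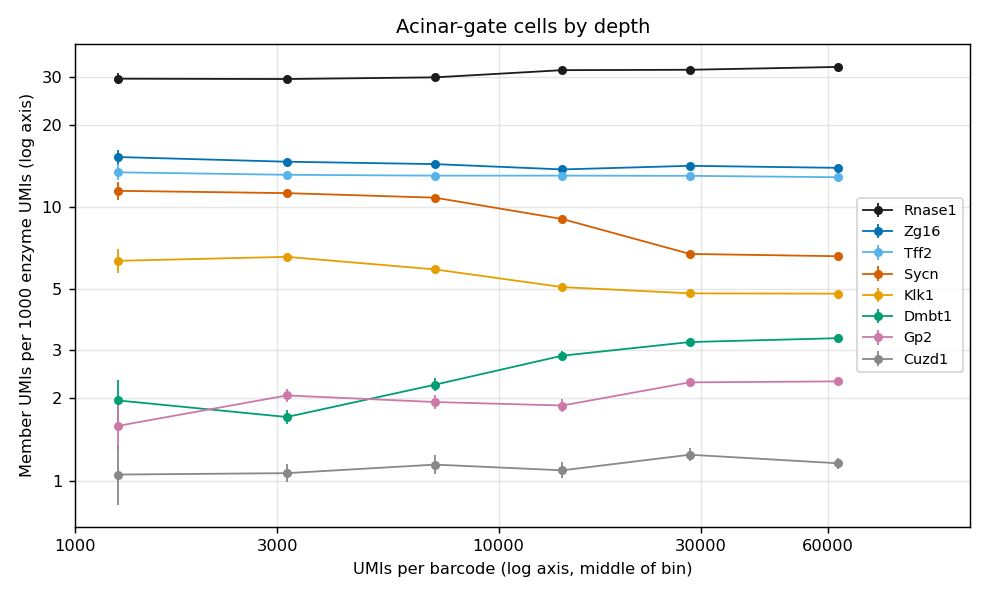
UMIs of each gene per 1000 UMIs of the 8 enzymes in acinar-gate cells, in 6 bins of UMIs per barcode (both axes log, points at the middle of each bin); bars are exact Poisson 95% intervals. *Sycn* descends from 11.5 to 6.62 and *Dmbt1* climbs from 1.96 to 3.32, while *Tff2* stays between 13.4 and 12.9.

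The 384 deep cells were examined 1 by 1, since there most members were counted many times per cell. *Tff2* was the most even, with a 10th percentile of 2526 and a 90th percentile of 5635 CPM, and with a coefficient of variation of 0.243 beyond counting error. *Rnase1* was similar, from 5880 to 14291 (0.304 beyond counting error). *Klk1*, *Zg16* and *Cuzd1* varied more, with 0.352, 0.358 and 0.396 beyond counting error. *Sycn* reached 0.468 and *Dmbt1* 0.493. *Gp2* was the most uneven, at 0.642, with a median of 541 CPM between a 10th percentile of 100.3 and a 90th percentile of 1353, and it was not seen at all in 11 cells, against 0 cells for *Rnase1*, *Zg16*, *Tff2*, *Sycn* and *Klk1*. The order of unevenness in deep cells thus set the membrane glycoprotein *Gp2* at 1 end and the trefoil peptide *Tff2* at the other. In nuclear-RNA-rich cells the largest value was that of *Dmbt1*, at 1.10 against 0.900 for *Gp2*, and in nuclear-RNA-poor cells *Gp2* was at 0.764 and *Dmbt1* at 0.640.

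**Figure D4:**
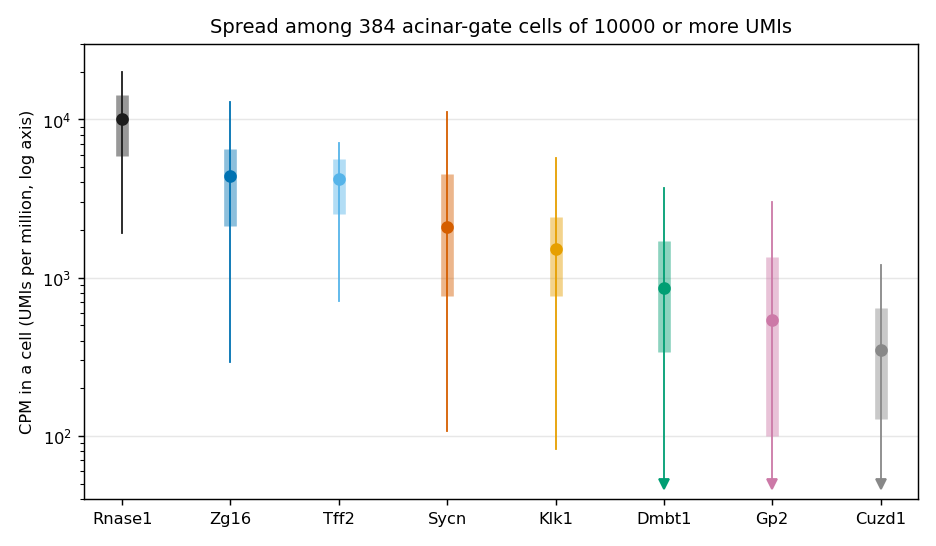
CPM of each gene in single acinar-gate cells of 10000 or more UMIs (log axis, n = 384 cells of 1 library): dots are medians, wide bars the 10th to 90th percentile, thin lines the full range, and triangles mark a lowest cell at 0. The bar of *Gp2* spans from 100.3 to 1353 and that of *Tff2* from 2526 to 5635.

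The members went together only weakly from cell to cell, and some pairs ran in opposite directions. Over the 28 pairs of members, the Spearman correlation of UMIs per enzyme UMI across these 384 cells ran from -0.233 (*Sycn* with *Dmbt1*) to 0.293, with a median of 0.0675. These values describe cells of 1 library that share a denominator, and no test was made on them. Counting error in single cells also weakens them, as the median count was 8 UMIs for *Cuzd1* and 12 for *Gp2*. *Dmbt1* correlated with the *Malat1* share at 0.229 and *Sycn* at -0.129, and with depth the 2 genes correlated at 0.178 and -0.255. *Gp2* correlated with *Malat1* share at -0.008.

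Duct-like cells were compared with *Col1a1* cells to see whether any of these products was also made by duct epithelium. *Dmbt1* reached 132 CPM (110 to 157) in the 47 duct-like cells against 20.2 (18.7 to 21.9) in *Col1a1* cells, 6.54-fold higher (5.36 to 7.93). *Tff2* reached 369 against 86.1 CPM, 4.29-fold higher (3.83 to 4.80). These were 2 of 8 members past 4-fold, a fold that 7.33% of 16044 genes reached. The other 6 lay between 1.73-fold (*Sycn*) and 3.74-fold (*Cuzd1*), and the enzyme sum itself was 3.57-fold higher in duct-like cells.

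The duct-like counts came from few cells. For *Tff2*, 4 of the 47 cells held 73.9% of the 352 UMIs, and for *Rnase1* 4 cells held 75.4% of 682. For *Dmbt1*, 4 cells held 54.0% of 126. The gate was therefore split, after its values had been seen. In the 29 duct-like cells with under 1% enzyme UMIs, *Tff2* stood at 93.2 CPM (69.8 to 122), *Dmbt1* at 24.6 (13.5 to 41.3) and *Rnase1* at 109 (83.6 to 140), which are 1.08-fold, 1.22-fold and 0.545-fold the level of *Col1a1* cells. In the other 18 cells, with 5.30% enzyme UMIs, *Tff2* stood at 778, *Dmbt1* at 291 and *Rnase1* at 1613 CPM. Within duct-like cells low in enzymes, 0 of 8 members were 4-fold higher than in *Col1a1* cells. These 29 cells were picked for few enzyme UMIs and held 0.427% of them, against 0.670% in *Col1a1* cells. Genes that go with the enzymes are held low by that choice, so the count cannot decide whether duct cells make them. The share of all genes past 4-fold was not computed for this subset.

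The duct-like cells were also split by *Epcam*, after their values had been seen. The *Epcam* UMIs were not scaled to depth, and the median was 11179 UMIs in cells with at least 2 of them and 4889 in the others. In the 38 duct-like cells with at least 2 *Epcam* UMIs *Dmbt1* gave 3.25 UMIs per 1000 enzyme UMIs (2.52 to 4.12). Its level there was 3.72-fold (2.85 to 4.78) that of *Col1a1* cells. The 9 duct-like cells with 0 or 1 *Epcam* UMI held 58 of the 126 *Dmbt1* UMIs of the gate, at 1206 CPM (916 to 1559) and 31.1 per 1000 enzyme UMIs (23.6 to 40.2). Most of the 58 came from 3 cells, with 21, 18 and 15, so these pooled values do not describe all 9. For *Rnase1* those 9 cells gave 25.7 per 1000 enzyme UMIs (19.0 to 34.1), near the 31.5 of the acinar gate. *Cuzd1* gave 3.75 per 1000 enzyme UMIs there (1.51 to 7.73, on 7 UMIs) and 1.00 (0.621 to 1.53) in the 38 other duct-like cells.

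Outside the acinar gate 16 cells held at least 5 *Dmbt1* UMIs. They were split by raw *Epcam* UMIs, which also separated them by depth, so *Epcam* and depth cannot be told apart here. Of these, 9 had 0 or 1 *Epcam* UMI, depths of 2044 to 12232 UMIs, an enzyme share between 1.05% and 4.77% and a *Dmbt1* level of 1226 to 6849 CPM, above the pooled acinar-gate level of 925. A UMI of *Rbpjl*, a subunit of the acinar PTF1 complex, was present in 9 of those 9 cells and in 2.61% of all cells outside the gate. At least 2 UMIs of the acinar factors *Ptf1a*, *Rbpjl* and *Bhlha15* together were present in 5 of the 9. The rest held 1 *Rbpjl* UMI and no UMI of *Ptf1a* or *Bhlha15*. *Nr5a2*, a nuclear receptor of acinar and duct cells, was present in 8 of the 9. *Malat1* made up 0.881% to 4.92% of their UMIs, against 0.435% in the acinar gate. Its share was 0.856% in nuclear-RNA-rich acinar cells, 0.931% in duct-like cells and 1.16% in *Col1a1* cells. In the same 9 cells *Rnase1* stood at 822 CPM (593 to 1112) and 25.7 per 1000 enzyme UMIs, and *Tff2* at 4.90 per 1000 enzyme UMIs (2.11 to 9.65). The other 7 cells had 6 to 64 *Epcam* and 12 to 123 *Sox9* UMIs, depths of 13157 to 75074 UMIs and *Dmbt1* levels of 155 to 532 CPM. UMIs of *Rbpjl* and of *Nr5a2* were present in all 7 of them too. Because these cells were picked for at least 5 *Dmbt1* UMIs, the lowest level a picked cell could show was higher the shallower the cell. The 9 cells were all shallower than the 7, so their levels cannot be compared apart from the picking. The *Dmbt1* levels of these cells, also beside the acinar gate, are therefore only a description.

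**Figure D5:**
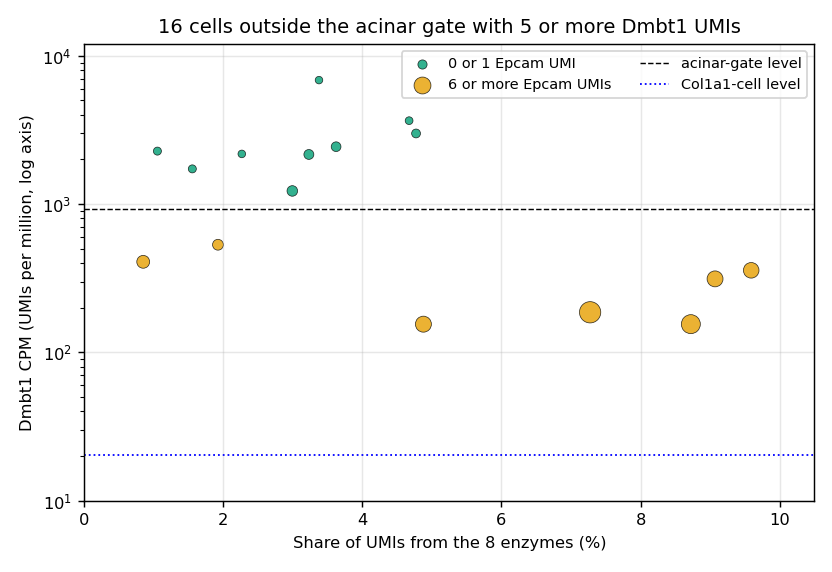
Level of *Dmbt1* (CPM, log axis) against the share of UMIs from the 8 enzymes (%) in the 16 cells outside the acinar gate with 5 or more *Dmbt1* UMIs; each dot is 1 cell, larger when deeper. The 9 cells with 0 or 1 *Epcam* UMI lie between 1226 and 6849, above the acinar-gate level of 925, and the 7 others between 155 and 532. The limit of 5 UMIs sets a higher lowest level for shallower cells, and the 9 cells are all shallower than the 7.

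The members were also counted in cells outside the gate that held acinar transcription factors. The 44 cells outside the acinar gate with at least 2 UMIs of the acinar transcription factors *Ptf1a*, *Rbpjl* and *Bhlha15* (acinar-factor cells, defined after the values above were seen) had a median depth of 4464 UMIs, 5.04% enzyme UMIs and 0.964% *Malat1* UMIs, and 30 of them were also *Col1a1* cells and 8 duct-like cells. The gate was not independent of the 9 cells just described, since 5 of those were in it and held 80 of its 176 *Dmbt1* UMIs. Its enzyme UMIs came from few cells as well, with 54.7% in 3 cells. The *Dmbt1* level of the 44 cells was 346 CPM (297 to 402), or 6.88 per 1000 enzyme UMIs (5.90 to 7.97), 2.40 times that of the acinar gate (2.06 to 2.78). In the 39 cells left without those 5, *Dmbt1* gave 3.92 per 1000 enzyme UMIs (3.18 to 4.79), 1.37 times the acinar gate (1.11 to 1.67). Among these 39 were deeper cells also picked for *Dmbt1*, with up to 8 *Rbpjl* UMIs, so the value is not free of that picking. Over all 44 cells *Sycn* gave 3.67 per 1000 enzyme UMIs (2.97 to 4.49), 0.448 times the acinar gate (0.362 to 0.548), and *Klk1* 3.20, 0.610 times (0.485 to 0.757). *Rnase1*, *Zg16*, *Tff2* and *Cuzd1* lay between 0.977 and 1.13 times, and *Gp2* was at 0.764 times (0.550 to 1.03). A UMI of *Dmbt1* was found in 27 and of *Sycn* in 24 of the 44 cells. Depth, enzyme share and *Malat1* all differ between this gate and the acinar gate, and their part in the result was not tested.

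Relatives of the members had few UMIs, apart from some ribonucleases. Of 13 *Klk1b* genes, the mouse paralogs of *Klk1*, 7 had at least 20 UMIs in both classes together and 6 of these were at least 4-fold higher in the acinar gate than in *Col1a1* cells, beside the 4.48% of all genes, led by *Klk1b5* with 224 UMIs and *Klk1b3* with 115. All 13 together gave 560 UMIs in the acinar gate beside 24849 of *Klk1*, and as these genes are near copies, reads that match several of them may be lost or misplaced. *Klk1b22* was at 0.475-fold (0.203 to 0.994). The trefoil genes *Tff1* and *Tff3* had 0 and 18 UMIs in the acinar gate, beside 61457 of *Tff2*, and a count of 0 there allows up to 0.205 CPM. *Umod*, the kidney relative of *Gp2*, had 16 UMIs. Among ribonucleases, *Rnase4* was shared, with 259 CPM in the acinar gate and 280 in *Col1a1* cells, *Ang* was higher in the acinar gate (66.2 against 14.1), and *Rnase6* was highest in *Ptprc* cells (36.9 against 1.71 in the acinar gate).

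Of 15 genes of the granule and secretory machinery, 11 were at least 4-fold higher in the acinar gate than in *Col1a1* cells beside 4.48% of all genes, and 0 were 4-fold lower, beside 22.4%. The median of the 15 was 27.7-fold, where the median over all genes lay at a log2 fold of -0.98. Several had folds near those of the members: *Serpini2*, a secreted serpin, was 59.6-fold higher, *Erp27*, an endoplasmic reticulum chaperone, 46.3-fold, *Aqp12*, an acinar aquaporin, 41.4-fold, *Cckar*, the cholecystokinin receptor, 39.7-fold, and *Pdia2*, a pancreatic disulfide isomerase, 39.2-fold. The transcription factor *Bhlha15* and *Tmed11*, named after their values were seen, were 60.6-fold and 52.4-fold higher. The small GTPases of granule release were less restricted, with *Rab3d* at 7.23-fold, *Rab27b* at 6.65-fold and *Rab26*, named after its value was seen, at 15.4-fold (168 against 23 UMIs), and *Rab27b* was higher in duct-like cells (288 CPM) than in the acinar gate (82.2). The fusion proteins did not reach 4-fold: *Vamp8* was at 1.03-fold (0.955 to 1.10), and *Snap23* and *Vamp2*, named after their values were seen, were at 0.474-fold and 0.331-fold.

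Over 12 classes gated by markers, the gene most like each member was named by Pearson's r of log2(CPM + 10) among 14951 genes. The nearest were *Cpb1* for *Rnase1* (0.999), *Klk1* for *Zg16* (0.999), *Ctrb1* for *Tff2* (0.998), *Ctrl* for *Gp2* (0.997), *Prss2* for *Cuzd1* (0.997), *Klk1* for *Sycn* (0.993) and *Tff2* for *Dmbt1* (0.991). The lowest nearest values were those of *Dmbt1* and *Sycn*, and as the classes come from 1 library these correlations describe mainly the step from the 3 acinar classes to the other 9.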

How the data were processed

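According to the methods of the study, the authors made a 3′ library of 5 to 6 pooled pancreata and aligned it to the mm10 build with Cell Ranger 7.1.0, default settings, which in that version also count intronic reads. They deposited counts, that is, UMIs per gene and barcode without normalization. The ambient RNA removal and UMI limits that the methods name are not visible in the deposited counts, whose shallowest barcode held 500 UMIs and which total 51540177 UMIs.

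A barcode was kept when it had over 800 UMIs, below 100000 UMIs and a mitochondrial share below 15%. The members, gene lists and gates were chosen with earlier results of these data known. Members, their relatives, up to 8 genes of the secretory list with the most UMIs in the acinar gate (others of it where a contrast needed them) and the 3 genes most like each member were to be named. Levels are pooled UMIs per 1000000 UMIs of a class (CPM). With 1 library there was no test. A gene was called at 4-fold for the acinar or duct-like gate against *Col1a1* cells and at 2-fold between acinar gates. It needed at least 20 UMIs in both classes together. Shares of cells were repeated after thinning to 800 UMIs. Red blood cells had at least 10% globin UMIs and 257 of the 519 also counted as *Col1a1* cells. Doublets were kept. Scrublet in scanpy 1.11.5 (expected rate 0.08) marked 4.91% of kept barcodes, and removal of the marked barcodes was an alternative. The marked share was 7.06% in nuclear-RNA-poor cells, 13.15% in nuclear-RNA-rich cells and 4.69% in acinar-gate cells of 10000 or more UMIs. The interval code was tested on simulated data. Python 3.11.15, numpy 2.4.6 and scipy 1.17.1 were used.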

Additional observations from a re-analysis of the deposited data

Results flagged for a closer look

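Barcodes left out of the comparisons also held UMIs of the 8 genes, above the 3 UMIs that a count of 0 allows, and no comparison of the report uses them. The 752 barcodes at or below 800 UMIs held 1027 UMIs of the members, or 82.5 per 1000 enzyme UMIs. The 14 barcodes at or above 100000 UMIs held 39173, or 2.27% of their UMIs and 75.8 per 1000 enzyme UMIs, and *Sycn* gave 7.76 and *Dmbt1* 3.21 per 1000 enzyme UMIs there, beside 6.62 and 3.32 in the deepest kept bin. The 76 barcodes with at least 15% mitochondrial UMIs held 470, or 79.7 per 1000 enzyme UMIs, and *Dmbt1* gave 6.78 (4.85 to 9.24) there on 40 UMIs.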

How the results depend on the processing

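All 8 members stayed past 4-fold between the acinar gate and *Col1a1* cells under each of 13 alternatives, with 21.3-fold (*Sycn*) the lowest value, and 0 members passed 2-fold in either contrast between acinar gates under the 11 and 10 alternatives run there. Not all of these could change a member. Counting every gene with at least 1 UMI altered only the background, and a limit of 10000 UMIs left the nuclear-RNA-poor and nuclear-RNA-rich cells as they were. Subtracting the red blood cell profile was scaled to the enzyme UMIs of *Col1a1* cells, and it raised the folds over them. The duct-like count of 2 members was less steady. It was 1 with an acinar gate of 5%, 7 with a gate of 20%, and 1 when shares of single cells were averaged. Restricting duct-like cells to those with at least 2 *Epcam* UMIs gave 1, and to those under 1% enzymes gave 0, where the limit itself removes cells rich in enzymes. These 2 alternatives, and all those for shares of cells and for ratios to the enzymes, were chosen after seeing the data. With fewer than 10000 UMIs the count stayed at 2 but the genes differed: *Dmbt1* was 15.6-fold and *Cuzd1* 5.03-fold higher, and *Tff2* was at 1.87-fold. The share of all genes past the fold was not recorded under the alternatives, so these counts do not set the members apart from other genes. The *Dmbt1* ratio of acinar-factor cells was 2.40 with and 1.37 without the 5 cells with 0 or 1 *Epcam* UMI that were also picked for *Dmbt1*. This alternative was likewise added after seeing the data, and it kept deeper cells picked for *Dmbt1*. Subtracting the red blood cell profile gave no duct-like value, since it would take more UMIs than the class holds. The causes were not tested. Counting error limits *Cuzd1*, *Gp2* and *Dmbt1* outside the acinar gate, and with 1 pooled library no value carries the spread between animals. No paired analysis was possible because there was 1 sample.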

Other observations

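The members were also counted in the endocrine, mesothelial, endothelial, mural and Schwann classes. Per 1000 enzyme UMIs, *Rnase1* gave 27.1 in 9 endocrine cells, 31.2 in 381 mesothelial cells, 29.0 in 510 endothelial cells, 28.6 in 228 mural cells and 28.0 in 57 Schwann cells. It gave 29.9 in the 5867 *Col1a1* cells left after the other marker classes were taken out. *Sycn* gave 11.7 (10.0 to 13.5) in the mesothelial, 13.2 in the endothelial, 9.08 (7.01 to 11.6) in the mural and 6.29 (3.02 to 11.6, on 10 UMIs) in the endocrine class. In the Schwann class *Sycn* gave 4.15 (1.13 to 10.6, on 4 UMIs). The intervals of the mural, endocrine and Schwann classes lay below the 12.9 of the same 5867 *Col1a1* cells, and that of the mesothelial class held it. In the acinar gate, the 59 cells with at least 50% of their UMIs from the enzymes were set against the 253 cells at 10% to 20% enzymes. Per 1000 enzyme UMIs the 59 cells gave 9.91 for *Zg16*, 9.05 for *Tff2*, 25.2 for *Rnase1* and 12.3 for *Sycn*. The 253 cells gave 13.7, 14.8, 32.8 and 9.01 in the same order. Cells at 40% to 50% enzymes lay between, at 13.4, 11.9, 28.7 and 9.56. Cells at 20% to 30% gave 14.4, 13.6, 33.2 and 7.02, and those at 30% to 40% gave 14.6, 13.3, 32.2 and 7.77. Only *Tff2* thus fell at each step, while *Sycn* was lowest and *Zg16* highest between 20% and 40%. The enzymes are also the denominator of these values.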
